A study of Homo sapiens with 12 samples.

Results

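MHC class II molecules, their chaperone CD74 and their transcriptional coactivator CIITA were examined in epirubicin-resistant breast cancer cells. The 10 genes described are CD74, CIITA, HLA-DRA, HLA-DRB1, HLA-DPA1, HLA-DPB1, HLA-DMA, HLA-DMB, HLA-DQB1 and HLA-DOA, out of 58735 genes measured. They were taken as a named list, by GENCODE 29 symbol, because earlier results of these data had shown them far above the parental level in the resistant cells. That difference is therefore given below as a description without a test. RNA-seq was performed on 12 libraries, 3 in each of 4 groups. The parental SK-BR-3 cells are a human breast cancer cell line with ERBB2 (HER2) amplification and were untreated. SK/EPI is the epirubicin-resistant line raised from it by long, stepwise culture in rising epirubicin, an anthracycline that poisons topoisomerase II. SK/EPI-siNC and SK/EPI-siBCRP are SK/EPI cells transfected for 48 h by Lipofectamine RNAiMax with a control siRNA (siNC) or an siRNA against BCRP (siBCRP), the drug transporter encoded by ABCG2. All 12 libraries carry the cell line label SK-BR-3, the resistant groups come from 1 derived line, and neither the labels nor the methods say whether it is a clone or how far the 3 samples of a group are separate cultures. The p-values below thus measure the spread between these samples, which may be technical.

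MHC class II molecules present peptides from the endosomal route to CD4+ T cells. Each is a pair of an alpha and a beta chain (HLA-DR, HLA-DP or HLA-DQ) that assembles around CD74, the invariant chain, which blocks the groove and guides the complex to the endosome. HLA-DM then exchanges the remaining CD74 fragment for a peptide, and HLA-DO holds HLA-DM back. CIITA does not bind DNA itself but docks on the RFX, CREB and NF-Y factors at the X and Y boxes of these promoters, and it sets how strongly the whole family is transcribed. Professional antigen-presenting cells make CIITA constitutively, whereas most epithelial cells make it only under interferon gamma.

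Because the genes share this control, their promoter sequences are shown first. RefSeq windows (GRCh38.p14) of 300 bases, from 250 before to 50 after the start, matched 8 of the 10 genes, CIITA and HLA-DRA having no match. The stretches below lie on the gene's strand, 5′ to 3′. Capitals mark GNNACNGA, letters of the X box (N is any base), and ATTGG or its complement CCAAT, the Y box core. The first 4 genes held both motifs with ATTGG starting 32 or 33 bases after the start of GNNACNGA, so that the motifs did not overlap.
HLA-DRB1, chr6:32589885-32589931, minus strand: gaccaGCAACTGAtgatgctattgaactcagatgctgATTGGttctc
HLA-DQB1, chr6:32666736-32666782, minus strand: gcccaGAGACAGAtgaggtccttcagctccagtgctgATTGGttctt
HLA-DMA, chr6:32953167-32953214, minus strand: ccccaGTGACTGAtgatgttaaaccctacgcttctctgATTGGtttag
HLA-DOA, chr6:33009649-33009696, minus strand: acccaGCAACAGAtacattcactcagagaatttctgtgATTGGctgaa
HLA-DMB, chr6:32941073-32941120, minus strand: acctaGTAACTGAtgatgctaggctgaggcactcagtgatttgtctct
HLA-DPA1, chr6:33073705-33073752, minus strand: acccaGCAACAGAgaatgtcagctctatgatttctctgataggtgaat
HLA-DPB1, chr6:33075853-33075900, plus strand: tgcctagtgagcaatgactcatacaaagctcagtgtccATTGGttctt
CD74, chr5:150412954-150413001, minus strand: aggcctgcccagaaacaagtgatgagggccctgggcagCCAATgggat

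The HLA-DRB1, HLA-DQB1, HLA-DMA and HLA-DOA windows thus held the spaced pair, and the other 4 did not. The stretches of HLA-DMB and HLA-DPA1 show the X box letters alone, and those of HLA-DPB1 and CD74 the Y box letters alone. Outside these stretches, the HLA-DPB1 window also held GNNACNGA at -64 from the start and the HLA-DMB window CCAAT at -22, and a second HLA-DPA1 window held neither motif on the gene's strand. On both strands, 41.3% of all 35116 RefSeq windows held GNNACNGA, 34.6% held ATTGG, and 0.134% (47 windows) held the pair at this spacing. The letters and the spacing were chosen after the class II windows had been read, so these shares are a description. Of 5 further class II genes with a window, HLA-DQA1 and HLA-DRB5 held the pair as well. They are the partner of HLA-DQB1 and a near copy of HLA-DRB1.
HLA-DQA1, chr6:32637300-32637347, plus strand: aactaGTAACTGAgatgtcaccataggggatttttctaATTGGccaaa
HLA-DRB5, chr6:32530368-32530414, minus strand: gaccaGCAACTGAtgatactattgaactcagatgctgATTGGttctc

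Values were read as FPKM, which divide reads by the merged length of all annotated exons and by library size. Levels and ratios between genes therefore depend on that length. In SK/EPI, HLA-DPA1 (5748 exonic bases) had 1964 to 2066 reads per library and HLA-DRA (1280 bases) 1817 to 1948. Their mean FPKM were 18.8 and 77.5. Each library held 15830381 to 20545811 reads on genes. The 2 tables, one with SK-BR-3 and SK/EPI and one with the siRNA groups, may have been normalized separately, and tests were run only within a table. Of the breast epithelial markers, KRT8 was at 902 FPKM in SK/EPI and 765 in SK-BR-3, KRT19 at 509 against 1651 and TFAP2A at 0.272 against 14.8, while CDH1 was near 0 in all groups. ABCG2 itself fell in SK/EPI-siBCRP, with 2.84, 3.47 and 2.91 FPKM against 32.5, 32.7 and 33.7 in SK/EPI-siNC (log2 difference -3.06, SE 0.06, limma adjusted p = 5.9e-07).

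In SK-BR-3 cells the class II family was nearly silent apart from low levels of HLA-DMA and HLA-DQB1, and in SK/EPI cells it was transcribed at levels that CD74 led. All 10 genes were higher in all 3 SK/EPI libraries than in any SK-BR-3 library. Among all 15823 genes tested in this table, 39.4% showed that pattern and limma called 37.9% higher and 74.9% in either direction at an adjusted p under 0.05, and nothing is read from the count here because the genes were chosen on this comparison. The 10 genes passed the filter on low reads, 7 of them only through SK/EPI. Their median difference in log2(FPKM + 1) was 2.91, against 0.0084 over all tested genes. The sum of their FPKM was 3.75 to 4.02 in SK-BR-3 and 344 to 363 in SK/EPI. These are bulk libraries, in which more expressing cells and more RNA per cell cannot be told apart.

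**Figure D1:**
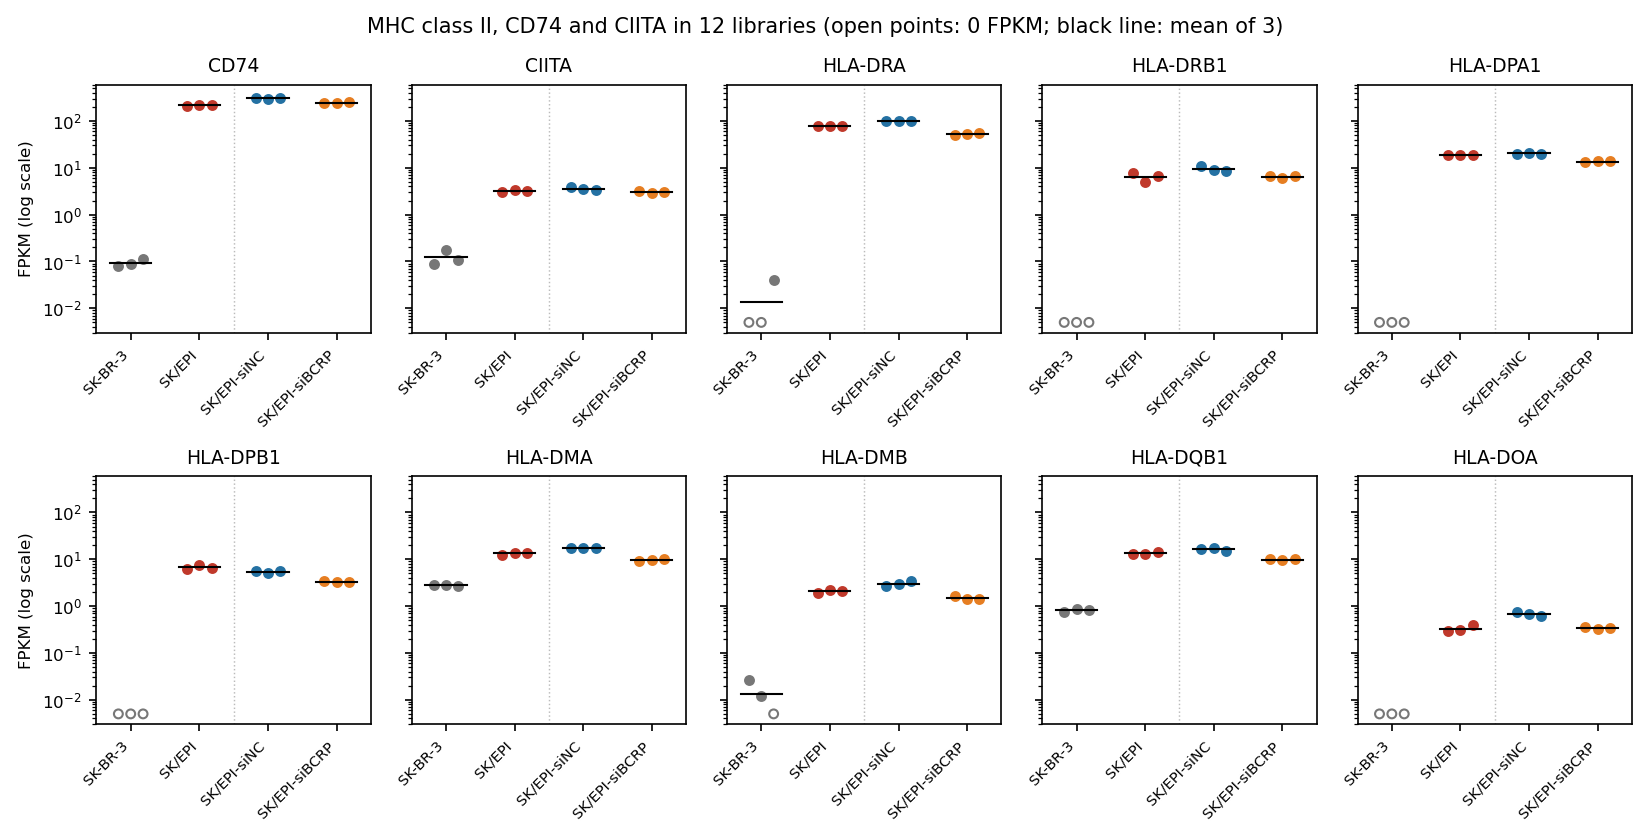
FPKM of the 10 genes (log axis) in each of the 12 libraries, with 1 panel per gene, points for libraries, open points for 0 FPKM and black lines for means of 3. The dotted line separates the 2 tables. SK-BR-3 lies below the other groups in each panel, with the smallest gap on this axis for HLA-DMA (mean 2.81 FPKM against 9.58 in SK/EPI-siBCRP). SK/EPI-siBCRP lies below SK/EPI-siNC in all 10.

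CD74 (chr5:150401637-150412929, minus strand, GRCh38) was the most abundant of the family. It reached 203, 219 and 221 FPKM in SK/EPI, from 0.0792, 0.0869 and 0.115 in SK-BR-3. These SK-BR-3 values rest on 4 to 7 reads per library, against 12606 to 13189 in SK/EPI. The ratio of the means was 2286, with a 95% counting interval of 1391 to 3954. CD74 shares no exonic bases with another gene in GENCODE 29.

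CIITA (chr16:10866222-10943021, plus strand), the coactivator, measured 0.0880, 0.179 and 0.109 FPKM in SK-BR-3. In SK/EPI it measured 3.04, 3.31 and 3.20 FPKM, 25.4 times the parental mean (95% counting interval 21.2 to 30.02). Its merged exons span 20757 bases, so these FPKM stand for 29 to 67 reads per SK-BR-3 library and 1236 to 1244 per SK/EPI library. DEXI, transcribed on the opposite strand, overlaps 11.6% of the exonic bases of CIITA, and reads of the overlap cannot be told apart because the strand setting of the counting is not stated. DEXI was also upregulated in SK/EPI (2.01 against 0.822 FPKM, log2 difference 0.73, SE 0.08, limma adjusted p = 7.7e-05), and its part in the CIITA values was not tested.

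HLA-DRA followed CD74 in FPKM, with HLA-DRB1 well below both. HLA-DRA (chr6:32439842-32445046), the alpha chain, had 77.6, 78.6 and 76.2 FPKM in SK/EPI and a single read over the 3 SK-BR-3 libraries, which makes it at least 580.2-fold higher. HLA-DRB1 (chr6:32578769-32589848), a beta chain, had 7.80, 5.00 and 6.60 FPKM in SK/EPI and no read in SK-BR-3, a fold of at least 46.5. These bounds set the SK-BR-3 level at 3 reads per library and cover counting error only. The DRA to DRB1 ratio in SK/EPI was 9.95 to 15.7. HLA-DRB1 is highly polymorphic and nearly identical in part to HLA-DRB5, and how the authors counted reads with several positions is not given in the sources used here.

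Both HLA-DP chains were without a read in SK-BR-3. HLA-DPA1 (chr6:33064569-33080775) had 18.3, 18.9 and 19.1 FPKM in SK/EPI, at least 632-fold higher, and HLA-DPB1 (chr6:33075926-33087201) had 6.18, 7.49 and 6.37 FPKM, at least 109-fold higher. HLA-DQB1 (chr6:32659467-32668383), the DQ beta chain, was already detected in SK-BR-3 at 0.745, 0.881 and 0.814 FPKM. It reached 12.7, 13.0 and 14.2 FPKM in SK/EPI, 16.4 times that mean (95% counting interval 14.2 to 18.8).

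The peptide editors behaved unequally in the parental cells. HLA-DMA (chr6:32948613-32969094) had the highest SK-BR-3 level of the family at 2.81, 2.86 and 2.76 FPKM, on 113 to 133 reads per library. It rose to 12.3, 13.8 and 13.8 FPKM in SK/EPI, a ratio of 4.74 (95% counting interval 4.24 to 5.30). HLA-DMB (chr6:32934629-32941070), its partner chain, had 0 to 2 reads per SK-BR-3 library and 1.90, 2.22 and 2.05 FPKM in SK/EPI, at least 56.0-fold higher. HLA-DOA (chr6:33004178-33009612), the alpha chain of the HLA-DM inhibitor, was without a read in SK-BR-3 and low in SK/EPI, at 0.292, 0.303 and 0.399 FPKM (22 to 30 reads), at least 7.79-fold higher. The largest overlap with another gene was 6.87% of the exonic bases for HLA-DMA, 9.41% for HLA-DMB and 4.91% for HLA-DQB1.

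The order of mean FPKM in SK/EPI, which depends on exon length, was CD74, HLA-DRA, HLA-DPA1, HLA-DMA, HLA-DQB1, HLA-DPB1, HLA-DRB1, CIITA, HLA-DMB and HLA-DOA. HLA-DMA overlapped with HLA-DQB1, and HLA-DPB1 with HLA-DRB1, so that these neighbours were not ordered beyond their spread. In SK/EPI-siNC no neighbours overlapped and HLA-DRB1 stood above HLA-DPB1.

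All 10 genes were downregulated in SK/EPI-siBCRP compared with that in SK/EPI-siNC, with adjusted p-values from 5.2e-06 to 0.024 in limma over 16298 genes. Of all genes tested, 18.7% were called lower and 38.1% were called in either direction. All 3 SK/EPI-siBCRP libraries lay below all 3 SK/EPI-siNC libraries for each of the 10 genes, a pattern that 25.4% of all tested genes showed. The median difference in log2(FPKM + 1) was -0.56 for the 10 genes and -0.0036 over all genes. For 7 of the 10 genes the fall was 0.49 or more on the log2 scale, and for 6 it was at least 0.5, a size that 2.85% of all genes reached with a call. The summed FPKM of the family was 476 to 487 in SK/EPI-siNC and 339 to 351 in SK/EPI-siBCRP.

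**Figure D2:**
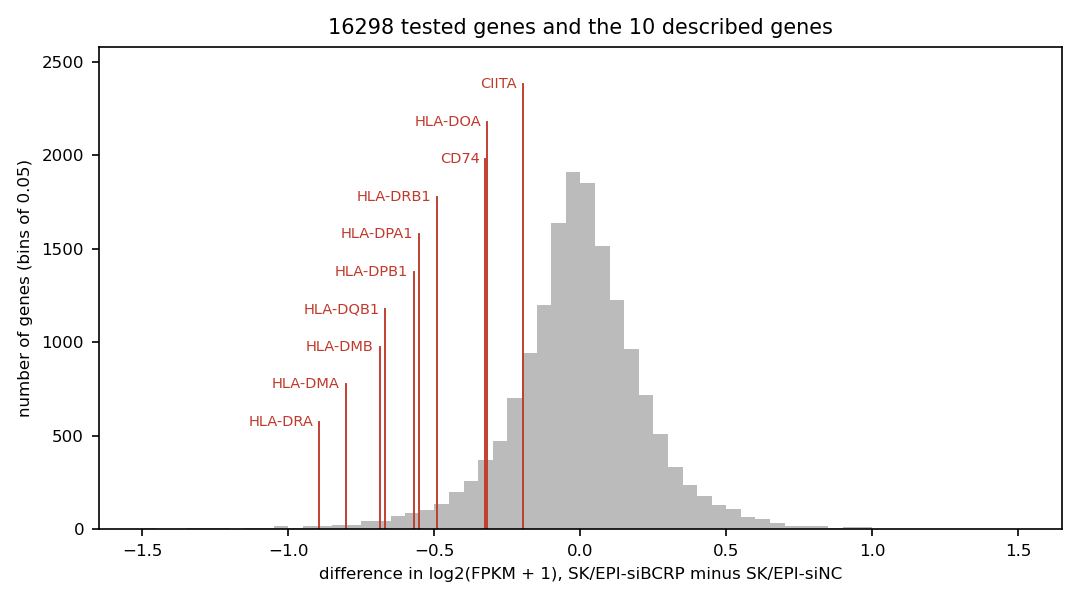
Number of tested genes (vertical axis, bins of 0.05) by difference in log2(FPKM + 1) between SK/EPI-siBCRP and SK/EPI-siNC, with red lines for the 10 described genes. Values beyond 1.5 in either direction are counted in the outermost bins. The 10 genes lie between -0.89 (HLA-DRA) and -0.20 (CIITA), left of the median of all genes.

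The alpha chain of HLA-DR fell most on this scale. HLA-DRA had 98.0, 99.0 and 99.8 FPKM in SK/EPI-siNC and 50.3, 52.7 and 55.4 FPKM in SK/EPI-siBCRP, a change of -46.6% (log2 difference -0.89, SE 0.03, limma adjusted p = 5.2e-06). A total of 77 of the 16298 genes (0.472%) had a larger fall. HLA-DRB1 went from 11.1, 9.02 and 8.57 FPKM to 6.65, 6.15 and 6.65 FPKM (-32.2%, log2 difference -0.49, SE 0.09, limma adjusted p = 0.0039). The first SK/EPI-siNC library stood highest for HLA-DRB1, and the groups did not overlap for either chain.

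The HLA-DM chains that load peptides fell together. HLA-DMA had 17.7, 17.4 and 17.3 FPKM in SK/EPI-siNC and 9.04, 9.70 and 10.0004 FPKM in SK/EPI-siBCRP (-45.1%, log2 difference -0.80, SE 0.04, limma adjusted p = 1.1e-05). HLA-DMB had 2.73, 2.93 and 3.41 FPKM against 1.61, 1.44 and 1.43 FPKM (-50.6%, log2 difference -0.69, SE 0.08, limma adjusted p = 0.00041). The DMA to DMB ratio overlapped between the groups, at 5.07 to 6.47 in SK/EPI-siNC and 5.61 to 6.98 in SK/EPI-siBCRP. HLA-DOA, which restrains HLA-DM, went from 0.754, 0.668 and 0.606 FPKM to 0.359, 0.321 and 0.348 FPKM (-49.3%). Because 1 FPKM is added before the logarithm, its log2 difference is smaller, at -0.32 (SE 0.05, limma adjusted p = 0.0019). On the recovered reads limma voom gave -0.99 for HLA-DOA and -1.02 for HLA-DMB.

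The HLA-DP chains and HLA-DQB1 fell by 33.5% to 39.4%. HLA-DPA1 measured 20.2, 20.3 and 20.2 FPKM in SK/EPI-siNC and 13.0, 13.7 and 13.6 FPKM in SK/EPI-siBCRP (-33.5%, log2 difference -0.55, SE 0.03, limma adjusted p = 1.3e-05). HLA-DPB1 went from 5.61, 5.01 and 5.57 FPKM to 3.497, 3.22 and 3.21 FPKM (-38.7%, log2 difference -0.57, SE 0.06, limma adjusted p = 0.00026). HLA-DQB1 went from 16.4, 17.2 and 15.3 FPKM to 10.1, 9.56 and 9.98 FPKM (-39.4%, log2 difference -0.67, SE 0.04, limma adjusted p = 4.2e-05).

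CD74 and CIITA showed the smallest falls in proportion among the 10 genes. CD74 went from 311, 301 and 304 FPKM in SK/EPI-siNC to 244, 239 and 248 FPKM in SK/EPI-siBCRP (-20.2%, log2 difference -0.33, SE 0.02, limma adjusted p = 7e-05). CIITA went from 3.80, 3.60 and 3.42 FPKM to 3.15, 2.93 and 2.98 FPKM (-16.3%, log2 difference -0.20, SE 0.05, limma adjusted p = 0.024). The CIITA call was the least secure of the 10. It was lost without SK/EPI-siBCRP replicate 2 (adjusted p = 0.073) or 3 (0.065), and without SK/EPI-siNC replicate 1 (0.077) or 2 (0.062), in limma each time. DEXI, which overlaps CIITA, fell as well (1.94 against 2.55 FPKM, log2 difference -0.27, SE 0.06, limma adjusted p = 0.0097), and its part in the CIITA values was not tested.

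**Figure D3:**
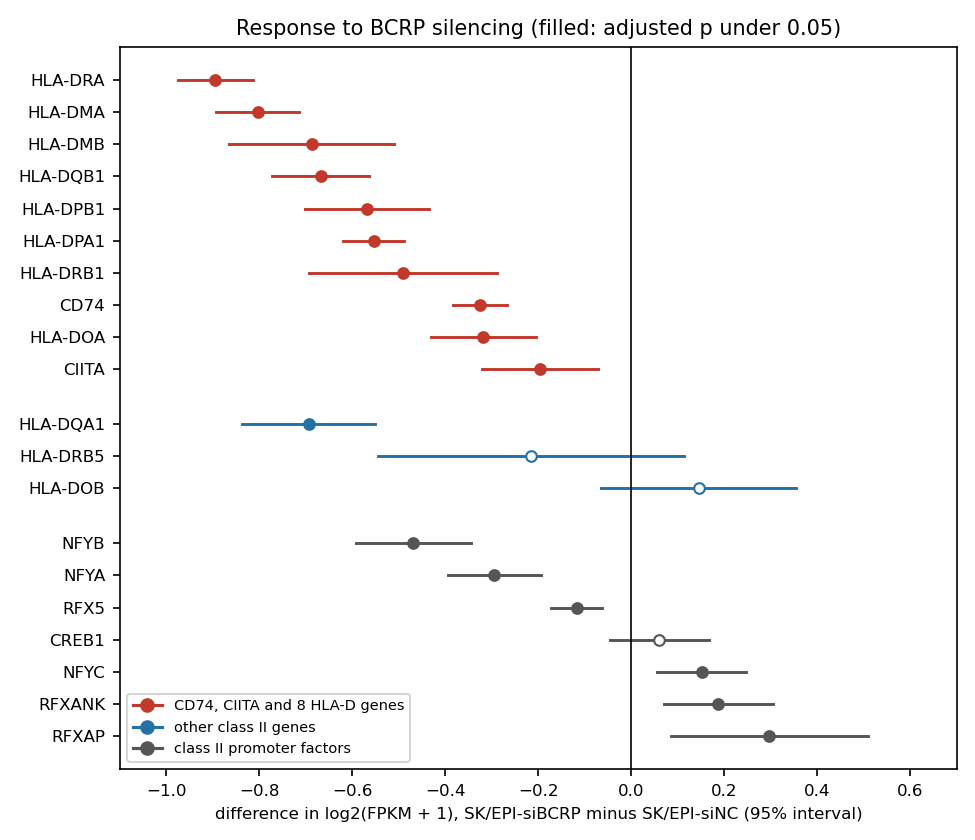
Differences in log2(FPKM + 1) between SK/EPI-siBCRP and SK/EPI-siNC (points, with 95% intervals) for the 10 genes, 3 other class II genes and 7 promoter factors, filled where the limma adjusted p was under 0.05. All 10 red points lie below 0, while the promoter factors lie on both sides of it.

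CD74 was higher relative to HLA-DRA after BCRP silencing. The ratio of CD74 to HLA-DRA was 3.04 to 3.18 in SK/EPI-siNC and 4.47 to 4.85 in SK/EPI-siBCRP, with no overlap. An exact two-sided permutation test of this ratio, chosen after the values were seen, gave p = 0.1, the smallest that 3 libraries against 3 allow. CD74 made up 63.3% to 63.9% of the summed FPKM of the 10 genes in SK/EPI-siNC and 70.5% to 71.4% in SK/EPI-siBCRP. In untransfected SK/EPI cells the ratio was 2.62 to 2.90 and the share 59.2% to 60.9%.

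**Figure D4:**
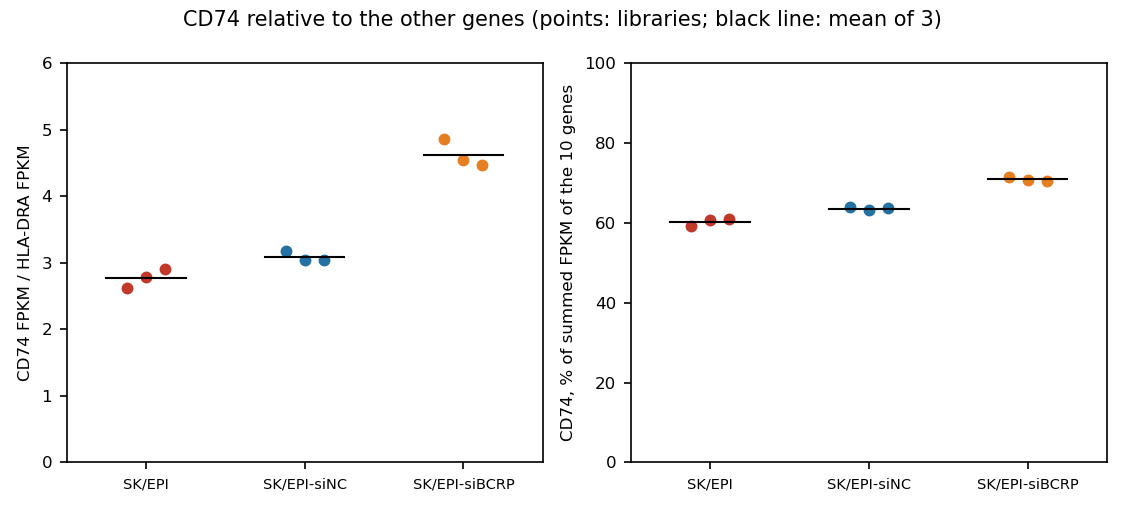
Ratio of CD74 to HLA-DRA FPKM (left) and CD74 as a percentage of the summed FPKM of the 10 genes (right) in the libraries of SK/EPI, SK/EPI-siNC and SK/EPI-siBCRP, with black lines for means of 3. Both measures are highest in SK/EPI-siBCRP, where the ratio spans 4.47 to 4.85.

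Untransfected SK/EPI was set beside the siRNA groups without a test, because the tables may have been normalized separately. Of the 10 genes, 9 were higher in all SK/EPI-siNC libraries than in any SK/EPI library. CD74 averaged 306 FPKM in SK/EPI-siNC and 215 in SK/EPI, and HLA-DRA 98.9 and 77.5 FPKM. HLA-DPB1 was the exception, at 5.39 and 6.68 FPKM. SK/EPI-siBCRP lay below SK/EPI in HLA-DRA, HLA-DPA1, HLA-DPB1, HLA-DMA, HLA-DMB and HLA-DQB1, above it in CD74, and overlapped with it in CIITA, HLA-DRB1 and HLA-DOA. The counts were the same after scaling all libraries to an equal FPKM sum. Over the 15152 genes tested in both tables, the median log2 difference of SK/EPI-siNC from SK/EPI was 0.038, and 0.145 after that scaling. How many of all genes showed these patterns was not counted, so the counts are not read as particular to the class II family.

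Of the 5 other class II genes, 3 could be tested, and 1 of them was called lower after BCRP silencing, against 18.7% of all genes. Between the 2 lines, HLA-DQA1 and HLA-DRB5 passed the filter on low reads only through SK/EPI. Their difference from SK-BR-3 is therefore a description without a test. HLA-DQA1, the alpha chain that pairs with HLA-DQB1, had 4.93, 4.67 and 4.91 FPKM in SK/EPI-siNC and 2.54, 2.89 and 2.42 FPKM in SK/EPI-siBCRP (log2 difference -0.69, SE 0.06, limma adjusted p = 0.00014). HLA-DQA1 was higher in SK/EPI (2.43 FPKM against at most 2 reads per SK-BR-3 library, at least 98.5-fold). HLA-DRB5 was also higher in SK/EPI, at 2.09 FPKM against no read (at least 15.4-fold). After BCRP silencing HLA-DRB5 measured 1.61 against 2.00 FPKM (log2 difference -0.22, SE 0.14, limma adjusted p = 0.27).

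HLA-DOB, the beta chain of HLA-DO, did not pass the test in either comparison. Its levels were 0.591 FPKM in SK/EPI and 0.754 in SK-BR-3 (limma adjusted p = 0.084), and 2.14 FPKM in SK/EPI-siBCRP and 1.85 in SK/EPI-siNC (limma adjusted p = 0.24). HLA-DQA2 and HLA-DQB2 had too few reads to be tested, as had all 6 class II pseudogenes.

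The factors that CIITA docks on were expressed in all groups and showed no common direction. Of 7 promoter factors, 3 were upregulated and 3 downregulated in SK/EPI-siBCRP, against 19.4% and 18.7% of all genes. RFXAP (0.30), RFXANK (0.19) and NFYC (0.15) rose on the log2 scale, and NFYB (-0.47), NFYA (-0.29) and RFX5 (-0.12) fell. The rises of RFXAP, RFXANK and NFYC lost their call in 5, 5 and 4 of the 6 limma fits without 1 library, with adjusted p-values up to 0.1. CREB1 measured 5.92 against 5.64 FPKM (limma adjusted p = 0.34). In SK/EPI compared with that in SK-BR-3, NFYA (0.58), CREB1 (0.25) and RFXANK (0.20) rose and NFYB (-1.44) and NFYC (-0.42) fell. RFX5, at 19.7 against 18.2 FPKM, and RFXAP, at 1.59 against 1.71 FPKM, did not pass the test (limma adjusted p = 0.058 and 0.5).

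Interferon gamma induces CIITA through its receptor, JAK1, JAK2 and IRF1. IFNG itself was listed at 0 in SK/EPI, SK/EPI-siNC and SK/EPI-siBCRP and had 0 to 3 reads per SK-BR-3 library. Of the 10 tested genes of this route, 6 were upregulated and 3 downregulated in SK/EPI, where 37.9% and 37% of all genes were. IFNGR1, the ligand-binding receptor chain, was the largest of these, at 96.9 against 10.98 FPKM (log2 difference 3.03, SE 0.04, limma adjusted p = 5.6e-10). IFNGR2, the second receptor chain, fell from 4.36 to 1.37 FPKM, and PTPN2, a phosphatase acting on the JAKs, rose from 2.98 to 6.37 FPKM. JAK2 rose from 1.56 to 3.54 FPKM.

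After BCRP silencing 2 of these 10 genes were upregulated and 4 downregulated, against 19.4% and 18.7% of all genes. SOCS1, a feedback inhibitor, rose from 2.73 to 3.76 FPKM (log2 difference 0.35) and IRF1 from 3.48 to 4.17 FPKM (0.21). IFNGR1 fell from 96.3 to 76.8 FPKM (-0.32). Among 9 cofactors and repressors of CIITA, 2 rose and 3 fell, against the same shares. The largest calls were EZH2, a histone methyltransferase (-0.31), HDAC1, a histone deacetylase (0.29), and KAT2B, a histone acetyltransferase (-0.23). The KAT2B call was lost in 4 of 6 fits without 1 library. In SK/EPI compared with that in SK-BR-3, 3 of the 9 rose and 3 fell, against 37.9% and 37% of all genes. KAT2B fell from 4.66 to 0.761 FPKM, EZH2 fell by 0.54 on the log2 scale and CARM1 rose by 0.51.

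The proteases that degrade CD74 and make the peptides were mostly not called after BCRP silencing. Of 11, 4 were upregulated and 1 downregulated, against 19.4% and 18.7% of all genes, and 6 did not pass the test. CTSH rose from 32.3 to 48.3 FPKM (log2 difference 0.57, SE 0.03), CTSL from 28.2 to 39.7 FPKM (0.48) and CTSZ from 48.1 to 63.7 FPKM (0.40). In SK/EPI 4 of 10 tested were upregulated and 6 downregulated, against 37.9% and 37% of all genes. CTSH rose from 3.05 to 54.5 FPKM (3.78), and CTSV and CTSD fell by 0.99 and 0.98.

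MHC class I genes are driven by NLRC5, a relative of CIITA, and were mostly higher where the class II family was lower. Of 12 class I and shared genes, 7 were upregulated in SK/EPI-siBCRP and 1, PSMB9, was downregulated, against 19.4% and 18.7% of all genes. The PSMB9 call (-0.17) was lost in 4 of 6 fits without 1 library. HLA-F (0.50), TAPBP (0.36) and NLRC5 (0.33) led, and HLA-B rose from 120.9 to 138 FPKM. In SK/EPI 7 of 11 rose, NLRC5 (2.06) and HLA-B (1.85) among them, and TAP2 fell, against 37.9% and 37% of all genes.

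**Figure D5:**
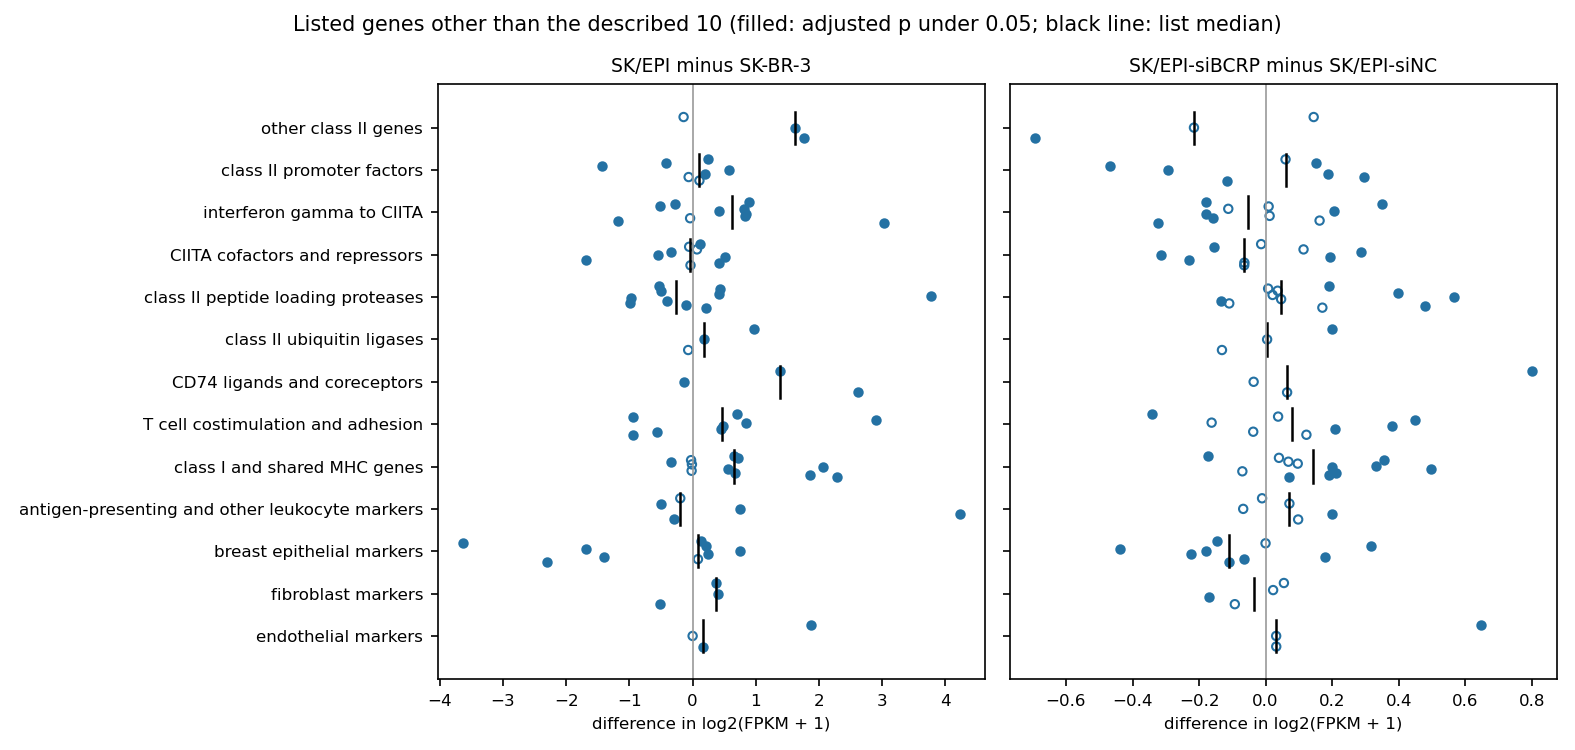
Differences in log2(FPKM + 1) of the tested listed genes other than the 10, by list, for SK/EPI minus SK-BR-3 (left) and SK/EPI-siBCRP minus SK/EPI-siNC (right), filled where the limma adjusted p was under 0.05, with black lines for list medians. On the left, the calls of HLA-DQA1 and HLA-DRB5 are not read as results, because both passed the filter on low reads only through SK/EPI. On the right the list medians lie between -0.22 and 0.14, above the -0.56 of the 10 genes, which are not plotted.

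Of 18 tested neighbours on the chromosomes, class II genes left out, 4 were called lower after BCRP silencing, a share near the 18.7% of all genes. The 8 HLA-D genes lie within chr6:32439842-33087201 (647 kb), which also holds HLA-DQA1, HLA-DRB5 and HLA-DOB, described above. It holds 6 tested genes that are not class II genes. Of these PSMB9 (-0.17) and BRD2 (-0.10) were downregulated in SK/EPI-siBCRP, and TAP1, TAP2, PSMB8 and PSMB8-AS1 did not pass the test. Of the 3 tested genes on each side of CD74, ARSI, TCOF1 and SYNPO rose (0.60, 0.22 and 0.26) and CAMK2A, RPS14 and NDST1 did not pass. Around CIITA, EMP2 (0.39) and CLEC16A (0.51) rose, DEXI (-0.27) and RMI2 (-0.25) fell, and NUBP1 and TVP23A did not pass. In SK/EPI compared with that in SK-BR-3, the CD74 neighbours had differences of -0.59 (NDST1) to 1.00 (SYNPO) and the CIITA neighbours of -0.72 (EMP2) to 0.73 (DEXI), against 7.62 for CD74 and 1.89 for CIITA.

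By profile over the 12 libraries, the genes most like CD74 were SPARC, AKR1B10, ABCB1, COL14A1 and VTN, with a root mean square difference of the centred log2(FPKM + 1) of 0.27 to 0.60. SPARC, an extracellular matrix protein, averaged 0.0118, 143, 179 and 209 FPKM in SK-BR-3, SK/EPI, SK/EPI-siNC and SK/EPI-siBCRP. ABCB1, which encodes P-glycoprotein, averaged 0.00603, 327, 206 and 187 FPKM. HLA-DRA ranked 9th for CD74. The genes most like CIITA were CLDN1, C5orf30, ARHGAP28, HRK and SH3TC1 (0.064 to 0.078), with HLA-DMA 159th and HLA-DMB 166th. From SK/EPI-siNC to SK/EPI-siBCRP the mean of CD74 fell (306 to 244 FPKM), as did those of ABCB1 and VTN. Those of SPARC, AKR1B10 (166 to 202 FPKM) and COL14A1 (98.7 to 106 FPKM) were higher. The likeness to CD74 thus rests mainly on the step up from low SK-BR-3 levels and on its size. The profiles span both tables, which may have been normalized separately, and come without a test.

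Leukocytes could carry class II RNA into a culture. Of 18 of their markers, 13 had at most 3 reads in each SK/EPI library, whereas CD14 and CSF1R were well above that. Of 18 such genes 5 had enough reads to be tested, and MS4A1, TYROBP, CD1C, FLT3 and CD2 were at 0 in all 4 groups. PTPRC, which all leukocytes express, averaged 0.0065 FPKM in SK-BR-3 and 0.0115 in SK/EPI. CD14 moved with the class II genes between the lines, at 27.4 FPKM in SK/EPI against 0.513 in SK-BR-3 (log2 difference 4.23, SE 0.05), and so did CSF1R, at 5.40 against 2.81 FPKM, while ITGAM fell from 0.544 to 0.0904 FPKM. CD14 was slightly higher in SK/EPI-siBCRP, at 7.96 against 6.82 FPKM (0.20, limma adjusted p = 0.046, lost in 5 of 6 fits without 1 library). The summed FPKM of the 18 markers was 4.98 to 5.35 in SK-BR-3, 32.5 to 34.6 in SK/EPI, 14.7 to 15.9 in SK/EPI-siNC and 15.6 to 17.2 in SK/EPI-siBCRP. Their part in the class II values was not tested.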

How the data were processed

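The authors deposited values per gene, without a named unit, in 2 tables of 6 libraries, poly-A selected and prepared with NEBNext Ultra. The submitters' processing notes name HISAT2 2.0.5, featureCounts 1.5.0-p3, DESeq2 1.16.1 and hg38, and strand and multi-mapping settings are not given in the sources used here. The IDs matched GENCODE 29. The values were inferred to be FPKM because each, times the merged exon length, was a whole multiple of a step per library, taken as 1 read (tolerance 0.01). Genes with at least 10 reads in 3 libraries and 15 in all were tested within each table with limma 3.58.1 (R 4.3.3; log2(FPKM + 1), trend, group only), Benjamini-Hochberg adjusted over all genes, at a threshold of 0.05. A count test was not the main fit because the deposited values were read as FPKM. Bounds use a floor of 3 reads per library and intervals a level of 95%, covering counting error only.

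The 10 genes and all gene lists were chosen with earlier results of these data known. Named genes were the 10, all other class II genes and promoter factors, the 3 largest calls of each other list, 3 flanking genes on each side and the 5 nearest profiles. IFNG, JAK2, CDH1, PTPRC, CD80, CD86, MIF, DDT, the genes inside the class II region and the leukocyte markers at 0 were named after their values were seen. Some listed genes are not reported here by name. Alternatives were a pseudocount of 0.1, no filter, at least 1 FPKM in 3 libraries, equal FPKM sums, median-of-ratios scaling, a replicate block, limma voom on recovered reads, and leaving out each library.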

Additional observations from a re-analysis of the deposited data

How the results depend on the processing

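All 10 genes were lower in SK/EPI-siBCRP under each of the 7 alternative settings that kept all libraries, except that at least 1 FPKM in 3 libraries left HLA-DOA untested (9 of 9 lower), and leaving out 1 library gave 9 to 10 lower, CIITA being the gene lost. Their median log2 difference was -0.56, -0.70 with a pseudocount of 0.1, -0.73 with limma voom on recovered reads, and -0.58 to -0.55 leaving out 1 library. Between SK/EPI and SK-BR-3 the median was 2.91, 5.14 with a pseudocount of 0.1, 7.69 with limma voom, 2.94 with at least 1 FPKM, and 2.87 to 2.93 leaving out 1 library, since the parental values are near 0. Same-numbered libraries did not pair (correlation of their deviations -0.007 to 0.048 for the siRNA groups and -0.022 to 0.006 for the 2 lines). With the replicate number as a block all 10 genes were still lower, and 9 of 58 called genes named or listed lost their call, RFXAP and KAT2B among them. Without a filter on low genes 13 of 58 did, RFXAP and RFXANK included. With equal FPKM sums 6 of 58 did, RFXAP and NFYC included. No gene reversed. Without 1 library, the libraries whose removal kept a call that others lost were SK/EPI-siBCRP replicate 3 for RFXAP, replicate 1 for RFXANK, KAT2B, NFYC and PSMB9, SK/EPI-siNC replicate 1 for KAT2B, replicate 2 for NFYC and CD14, and replicate 3 for PSMB9.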

Other observations

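Of the CD74 coreceptors, CD44 was upregulated in SK/EPI (7.53 against 0.386 FPKM, log2 difference 2.62, SE 0.06) and CXCR4 in both comparisons, from 0.536 to 3.02 FPKM in SK/EPI and from 4.89 to 9.24 FPKM in SK/EPI-siBCRP (0.80, SE 0.07, limma adjusted p = 0.00013). CXCR2 was low throughout and called lower in SK/EPI (0.181 against 0.294 FPKM, lost in 5 of 6 fits without 1 library). The ligands MIF and DDT had too few reads to be tested, and overlapping genes cover 62.0% of the exonic bases of MIF on the other strand and 36.9% of those of DDT on the same strand. Of 3 ubiquitin ligases that act on class II molecules, MARCH9 rose in both comparisons, from 0.888 to 2.71 FPKM and from 1.60 to 1.99 FPKM, and MARCH8 rose in SK/EPI (2.08 against 1.71 FPKM). The second MARCH9 rise was lost in 6 of 6 fits without 1 library and that of MARCH8 in 3 of 6.

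CD80 and CD86, the main costimulatory ligands of antigen-presenting cells, were near 0 in all groups, whereas ICAM1, an adhesion ligand, rose from 2.72 to 26.7 FPKM in SK/EPI and from 39.2 to 53.9 FPKM after BCRP silencing. In SK/EPI 5 of 8 tested genes rose and 3 fell, CD40 and CD58 by 0.94 each, against 37.9% and 37% of all genes. In SK/EPI-siBCRP 3 rose and 1, TNFRSF14, fell (4.16 against 5.54 FPKM), where 19.4% and 18.7% of all genes did. PDCD1LG2 was upregulated in both (0.48 and 0.38 on the log2 scale). Of the other marker lists, 4 of 9 breast epithelial genes rose and 4 fell in SK/EPI, against the same 37.9% and 37%. ERBB2 fell from 659 to 133 FPKM (-2.30), with TFAP2A at -3.64 and KRT19 at -1.69. In SK/EPI-siBCRP 2 rose and 6 fell, against 19.4% and 18.7% of all genes, led by KRT19 (-0.44), GATA3 (0.32) and KRT8 (-0.23). Of fibroblast markers COL3A1 (0.40) and PDGFRB (0.36) rose and COL1A1 (-0.52) fell in SK/EPI, and COL3A1 fell in SK/EPI-siBCRP (-0.17, lost in 4 of 6 fits without 1 library). Of 3 tested endothelial markers CDH5 rose in both comparisons (6.77 to 27.5 FPKM and 13.8 to 22.2 FPKM) and PECAM1 in SK/EPI (0.16).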
